A study of Mus musculus with 14 samples.

Results

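Erythropoietin receptor signalling was examined through 7 genes: the receptor gene Epor, the kinase gene Jak2, the transcription factor genes Stat5a and Stat5b, the feedback inhibitor gene Cish, and the target genes Pim1 and Bcl2l1. They were taken by symbol from the 32589 features of the purchased sections and the 19465 features of the cross sections, and all 7 were found in both tables. The genes were chosen by their levels across tissues, stages and C1qa genotype and by their spot correlation with Klf1 and C1qc in these same data, so those values are given as a description without a test. Klf1 encodes a transcription factor of erythroid cells, and C1qc encodes a subunit of complement C1q made by macrophages.

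Gene expression was measured with probe-based Visium spatial transcriptomics on formalin-fixed, paraffin-embedded mouse sections, 14 in all, with 1 library per section. Purchased wild-type mice gave 1 section each of E13.5 fetal liver, E14.5 fetal liver, leg bone marrow at postnatal day 8 (P8), leg bone marrow at 89 weeks with the bone removed, leg bone marrow of a 6-month mouse kept for 5 days in 0.5 M EDTA, and adult spleen. Mating of C1qa heterozygous mice gave 2 sections per group: wild-type and C1qa knockout E14.5 fetal livers, numbered 2 and 4 by the dam, and wild-type and C1qa knockout spleens at 3 months, numbered 1 and 2. The knockout is of the whole animal, so C1qa was lost from every cell and not from macrophages alone.

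Erythropoietin is the hormone that keeps late erythroid progenitors alive and dividing. When it binds the receptor EPOR on these cells, the kinase JAK2 bound to the receptor phosphorylates the receptor tail and the factors STAT5A and STAT5B, which enter the nucleus and switch on target genes. Among them are Cish, whose protein binds the receptor and damps the signal, Pim1, a survival kinase, and Bcl2l1, which encodes the anti-apoptotic protein BCL-XL of maturing erythroblasts. JAK2, STAT5A and STAT5B also serve other cytokine receptors and are made by many blood cells, whereas EPOR is largely held by erythroid progenitors.

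Promoter sequences were read from RefSeq for build GRCm38.p6, which held 12 windows of 300 bases for the 7 genes, each from 250 bases before the start of a transcript to 50 after. These windows are shown because Cish is a textbook target of STAT5 and because the windows of Epor and Bcl2l1 held a match to the erythroid GATA motif. The letters TTCNNNGAA, a STAT-type motif that reads the same on both strands, occurred in 8.30% of all 32851 windows and in at least 1 window of 9.55% of all 27025 genes. They were found in 1 of the 7 genes, Cish, in the 30 bases at chr9:107296654-107296683 (plus strand) that span its start. The first match began at the annotated start and the second 11 bases later, with 2 bases between them, and capitals mark the matches:
Cish: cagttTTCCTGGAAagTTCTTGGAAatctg
The motif of erythroid GATA factors, spelled AGATAA and searched on both strands, occurred in 11.2% of windows, in 12.7% of genes and in 2 of the 7 genes. In Epor the match began 54 bases before the start, and in 1 of the 3 Bcl2l1 windows 41 bases before it. The motifs do not overlap each other. The 250 bases before each start, on the minus strand, are chr9:21963577-21963826 for Epor and chr2:152828490-152828739 for Bcl2l1, with the match in capitals:
Epor: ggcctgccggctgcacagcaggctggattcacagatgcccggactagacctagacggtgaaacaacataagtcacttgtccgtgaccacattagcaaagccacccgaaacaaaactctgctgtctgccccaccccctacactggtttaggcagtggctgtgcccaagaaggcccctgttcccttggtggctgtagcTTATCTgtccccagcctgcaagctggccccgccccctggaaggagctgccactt
Bcl2l1: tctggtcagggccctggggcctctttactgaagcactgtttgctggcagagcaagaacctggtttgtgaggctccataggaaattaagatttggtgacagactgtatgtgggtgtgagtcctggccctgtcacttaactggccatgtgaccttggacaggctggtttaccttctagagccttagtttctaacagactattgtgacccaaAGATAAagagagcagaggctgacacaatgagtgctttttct
A match describes the letters of the window and is not a measured binding site.

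Levels are CPM, the UMI count of a gene over all UMIs of the section multiplied by 1000000, taken over tissue-covered spots in which 1000 or more genes were detected. A section held 15 to 2320 such spots and 37167 to 56182915 UMIs in them. Only 15 spots of the EDTA-treated marrow passed, so its values rest on single counts. Fetal liver sections of the cross held other embryonic tissue beside the liver: hepatocyte markers reached 0.5% of UMIs in 94.4% and 29.8% of spots of wild-type fetal livers 2 and 4, and in 96.6% and 62.5% of spots of knockout fetal livers 2 and 4. Wild-type spleen 1 stood apart from the other cross spleens with 8.80% of UMIs in 12 erythroid markers, against 2.29%, 1.12% and 2.60%. Knockout spleens 1 and 2 carried 0.295% and 2.06% of UMIs in pancreas markers, against 0.00597% and 0.0732% in the wild-type spleens. C1qa was at 218 and 269 CPM in the wild-type spleens and at 0.189 and 0.0548 CPM in the knockouts. It was at 95.9 and 25.8 CPM in the wild-type and at 0.0866 and 0.0595 CPM in the knockout fetal livers, as the genotype labels state. Probe sets and software differed between purchased and cross sections, so no test joins them, and since probe counts do not scale with transcript length, levels are compared between sections within a gene and never between genes.

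Epor, the receptor, had the widest range of the 7 genes, with 27.1-fold between the highest and the lowest cross section. Among purchased sections it was at 83.2 CPM in E13.5 fetal liver (95% Poisson interval 80.4 to 86.2), 89.5 in E14.5 fetal liver (87.0 to 92.0), 22.5 in P8 marrow (20.6 to 24.6), 82.8 in 89-week marrow (76.7 to 89.1) and 6.08 in adult spleen (4.91 to 7.45). These intervals cover counting error only. Both fetal livers and the 89-week marrow were therefore high, the P8 section was lower, and the spleen was lowest. In the P8 leg section, where 274 of 1085 spots had at least 0.5% of UMIs in marrow neutrophil markers, Epor was at 36.0 CPM in the 361 spots richest in these markers and at 4.72 CPM in the 361 poorest. No Epor count was seen in the EDTA-treated marrow, which allows up to 80.7 CPM (3 counts).

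In the cross, wild-type fetal livers 2 and 4 held Epor at 123 and 58.7 CPM, and knockout fetal livers 2 and 4 at 180 and 120 CPM. The genotypes overlapped, since wild-type fetal liver 2 lay above knockout fetal liver 4, while within each litter the knockout was higher. In the spots with at least 0.5% hepatocyte UMIs the values were 128 and 132 CPM in the wild types and 186 and 161 in the knockouts, which did not overlap. The share of all genes that separated the genotypes in these spots was not counted, so nothing is read from that order. In spleen, Epor was at 27.6 and 15.6 CPM in the wild types and at 8.59 and 6.63 CPM in the knockouts, again without overlap but in the other direction. That order was common, since 51.5% of all 18895 genes tested in spleen were below both wild types in both knockouts in CPM. Every fetal liver of the cross was above every spleen of the cross. In sections with bulk sums such as these, fewer cells of a type and less RNA per cell cannot be told apart.

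Jak2, which encodes the kinase, varied 2.41-fold among cross sections. In CPM, wild-type fetal livers held 46.8 and 45.3, knockout fetal livers 68.7 and 64.2, wild-type spleens 76.6 and 85.2, and knockout spleens 99.4 and 109. Both knockout sections were above both wild types in each tissue, beside 18.8% of all genes tested in spleen and 7.46% in fetal liver. Each spleen of the cross was above each fetal liver of the cross. Among purchased sections Jak2 was at 47.2 and 66.9 CPM at E13.5 and E14.5, 41.9 in P8 marrow, 90.7 in 89-week marrow and 96.7 in adult spleen.

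Stat5a and Stat5b, the pair of genes for the transcription factors downstream of JAK2, had their higher cross levels in spleen. For Stat5a the fetal livers gave 24.9 and 25.5 CPM (wild type) against 33.0 and 47.8 (knockout), and the spleens 85.3 and 100 (wild type) against 83.3 and 84.1 (knockout). For Stat5b the fetal livers gave 86.9 and 77.0 CPM (wild type) against 88.6 and 109 (knockout), and the spleens 192 and 250 (wild type) against 230 and 190 (knockout). For both genes each spleen was above each fetal liver of the cross, which is the reverse of Epor. In purchased sections Stat5a ran from 26.7 CPM in E13.5 fetal liver to 60.3 in 89-week marrow, and Stat5b from 56.5 CPM in E14.5 fetal liver to 121 in 89-week marrow.

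Cish, the feedback inhibitor, was the most even of the 7 genes, with 1.84-fold between the highest and the lowest cross section. Its fetal liver levels were 17.8 and 16.7 CPM without and 19.4 and 23.7 CPM with the knockout, and its spleen levels 18.1 and 28.9 CPM without and 18.0 and 15.7 CPM with it. The tissues overlapped, and Cish did not follow the 27.1-fold range of Epor. Among purchased sections it ran from 10.4 CPM in 89-week marrow to 21.5 CPM in E13.5 fetal liver.

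Pim1, the survival kinase, was higher in fetal liver than in spleen. Its fetal liver levels were 250 and 154 CPM (wild type) and 259 and 216 CPM (knockout), whereas its spleen levels were 115 and 118 CPM (wild type) and 99.4 and 109 CPM (knockout). In hepatocyte-marked spots the fetal livers came closer together, at 258 and 308 CPM in the wild types and 266 and 273 CPM in the knockouts. The purchased fetal livers, at 291 and 272 CPM, were also above P8 marrow, 89-week marrow and adult spleen at 71.8, 85.0 and 101 CPM.

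Bcl2l1, which encodes BCL-XL, set wild-type spleen 1 apart from the other spleens. It was at 202 CPM in wild-type spleen 1 and at 77.4, 57.4 and 64.6 CPM in wild-type spleen 2 and knockout spleens 1 and 2. In fetal liver it followed the number of the section more than the genotype, at 232 and 122 CPM in wild types 2 and 4 and 239 and 110 CPM in knockouts 2 and 4. The purchased values were 125 CPM at E13.5, 146 at E14.5, 61.6 in P8 marrow, 131 in 89-week marrow and 30.9 in adult spleen.

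**Figure D1:**
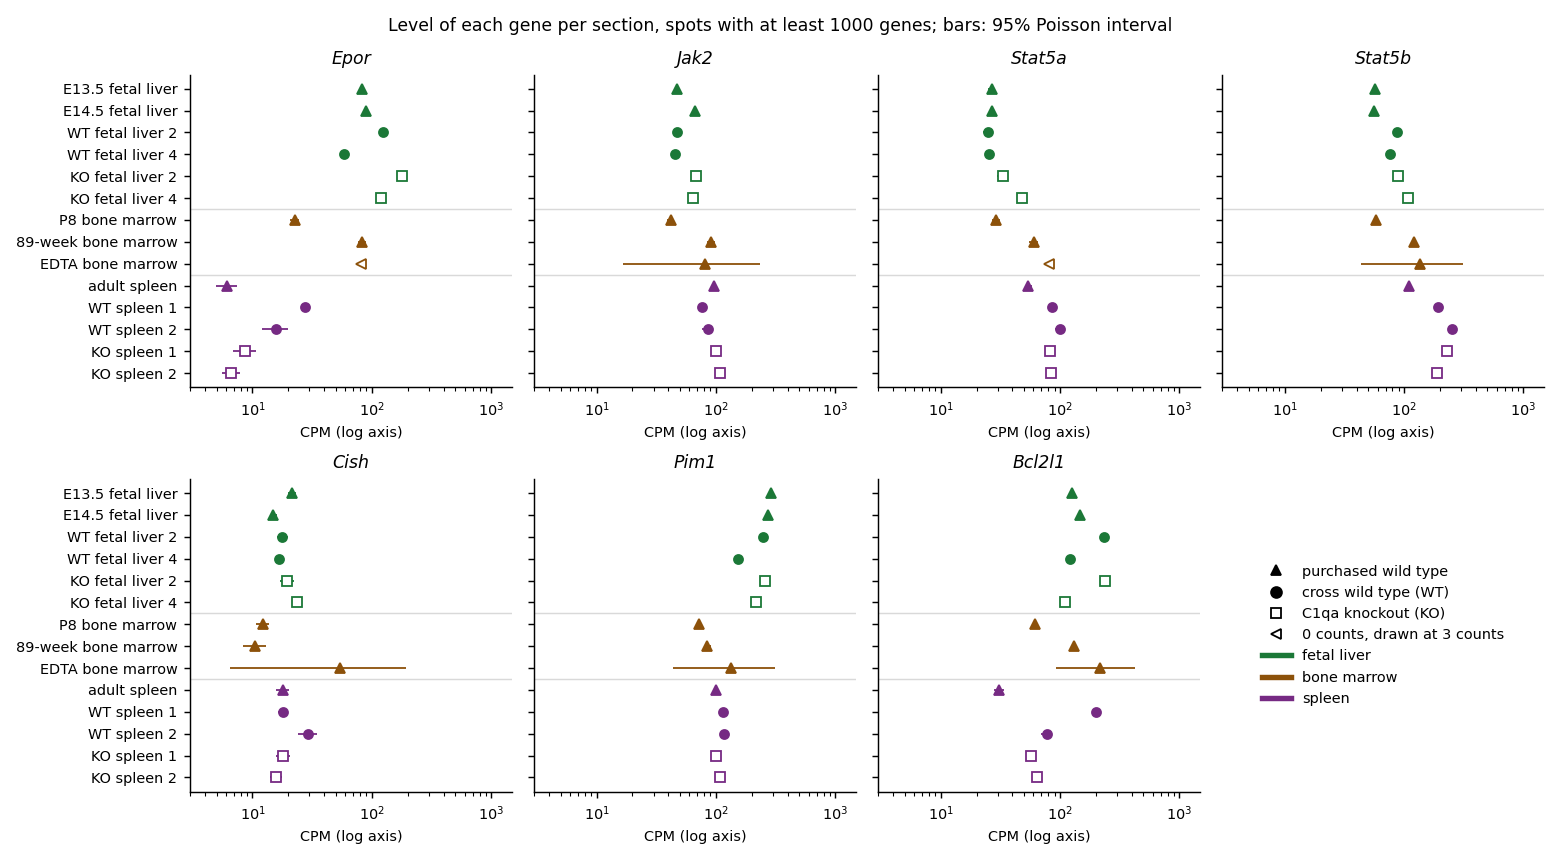
Level of each of the 7 genes (CPM, log axis) in every section, with 95% Poisson intervals; triangles are purchased wild-type sections, circles cross wild types and open squares C1qa knockouts, and an open left-pointing triangle marks 0 counts, drawn at 3 counts. Epor lies between 58.7 and 180 CPM in fetal livers of the cross and between 6.63 and 27.6 CPM in its spleens, whereas Stat5a and Stat5b lie higher in spleen and Cish varies little.

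The share of spots with at least 1 Epor UMI moved with depth as well as with level. It was 99.6% in E13.5 fetal liver, 61.2% (wild type) and 58.7% (knockout) in number 2 fetal livers, 44.2% (wild type) and 71.0% (knockout) in number 4 fetal livers, 30.1% and 3.77% in wild-type spleens 1 and 2, and 6.43% and 7.95% in knockout spleens 1 and 2. After each spot was thinned to 2000 UMIs the Epor shares of wild-type fetal livers became 20.9% and 6.70%, and those of the knockouts 29.1% and 18.0%, with 23, 0, 22 and 0 shallower spots left out. They were 5.98% and 3.11% in the wild-type and 1.63% and 1.39% in the knockout spleens, with 4, 554, 1 and 0 spots left out. At 1 depth the order of the spleens was thus that of the CPM. In the purchased adult spleen, with Epor at 6.08 CPM, the thinned Epor share was 1.34% at a median of 10971 UMIs per spot before thinning, against 7846 and 12139 in the knockout spleens.

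Read against Klf1, Epor was more even in spleen. Per 100 Klf1 UMIs the passing spots held 102 and 100 Epor UMIs in wild-type spleens 1 and 2 and 85.0 and 101 in knockout spleens 1 and 2. The absolute Epor levels of the same sections ran from 27.6 down to 6.63 CPM, so Epor and Klf1 went up and down together across these 4 spleens. In fetal livers of the cross the Epor ratio was 351 and 121 in the wild types and 258 and 158 in the knockouts, higher in number 2 than in number 4. Bcl2l1 showed no such evenness in spleen, with 746 and 495 UMIs per 100 Klf1 UMIs in the wild types and 568 and 983 in the knockouts.

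The effect of C1qa loss was compared within each tissue on counts summed per section with the edgeR quasi-likelihood test over all genes. In spleen, Epor differed by -1.32 ± 0.26 (log2 fold change ± SE, knockout over wild type, n = 2 and 2), Bcl2l1 by -0.95 ± 0.27 and Jak2 by 0.64 ± 0.17, all without a test since these contrasts were known when the genes were chosen. Cish differed by -0.17 ± 0.22, Stat5b by 0.18 ± 0.18, Stat5a by 0.12 ± 0.17 and Pim1 by 0.11 ± 0.16, each about as large as its error. For comparison, Klf1 differed by -1.19 ± 0.26 and C1qc by 0.35 ± 0.18. Of the 7 genes 3 were past an adjusted p of 0.05, beside 20.6% of all 18895 genes tested, and nothing is read from that count.

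The fold of Bcl2l1 rested on wild-type spleen 1. Without that section Bcl2l1 differed by -0.08 ± 0.20 and Epor by -0.80 ± 0.37, whereas without wild-type spleen 2 they differed by -1.47 ± 0.16 and -1.63 ± 0.27. Of the 12 erythroid markers 9 were below both wild types in both knockout spleens, none was above, and their summed share was 8.80% and 2.29% in the wild types against 1.12% and 2.60% in the knockouts. Other marker lists moved too: 8 of 8 neutrophil and 6 of 7 megakaryocyte markers were below both wild types in both knockouts, 8 of 8 pancreas markers tested were above, and of 7 B cell markers 3 were above and 1 below. In CPM, 51.5% of all genes tested were below both wild types in both knockout spleens and 18.8% above, since the median gene was at -0.32 (log2 CPM ratio) there and at -0.08 after TMM scaling. The part of these cell types in the Epor and Bcl2l1 differences was not tested. On the CPM scale Stat5a, Stat5b and Pim1 lay at -0.15, -0.08 and -0.16 between genotypes, so their direction turns with the scaling.

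Of the other 58 listed pathway genes found in the tables, 57 were tested in spleen. With edgeR 20 of them passed an adjusted p of 0.05, beside 20.6% of all 18895 genes tested. Of these 20, 16 were higher and 4 lower in the knockouts. The median log2 fold change of the 57 was 0.35, against -0.08 for all genes. Gata1, the erythroid master factor that switches on Epor, fell most, from 57.2 and 32.2 CPM in the wild types to 8.12 and 10.4 CPM in the knockouts (edgeR log2 fold change -2.03 ± 0.24, adjusted p = 2.88e-05). Tfrc, the transferrin receptor that feeds iron to erythroblasts, fell from 292 and 182 CPM to 88.1 and 93.3 CPM (-1.13 ± 0.20, edgeR adjusted p = 0.000785). Whether these falls follow the number of erythroid cells was not tested.

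By list, the counts can be read only beside all 18895 genes tested. Of those 20.6% were called, and 67.0% of calls were higher in the knockouts. All 4 changed genes among the 8 other JAK and STAT genes rose: Jak3, the kinase of the common gamma chain receptors in lymphocytes, by 1.08 ± 0.17 (log2, edgeR adjusted p = 0.000348), Stat4 by 1.03 ± 0.18, Stat6 by 0.99 ± 0.19 and Stat3 by 0.92 ± 0.17. Among 17 adaptors and kinases 5 rose and none fell. They included Pik3ca, a catalytic subunit of phosphoinositide 3-kinase, which was at 50.2 and 27.0 CPM in the wild types and 81.6 and 88.6 CPM in the knockouts (1.36 ± 0.22, edgeR adjusted p = 0.000406), its regulatory partner Pik3r1 (0.88 ± 0.17) and the exchange factor Vav1 (0.80 ± 0.17). Among 8 inhibitors 5 rose and none fell, with the ubiquitin ligase gene Cbl at 51.6 and 43.3 CPM in the wild types and 72.9 and 78.3 CPM in the knockouts (0.92 ± 0.18, edgeR adjusted p = 0.00145). Of 7 ligand and receptor genes tested 1 rose and 1 fell, and of 17 target genes 1 rose and 3 fell.

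These spleen counts depended on the scaling and on single libraries. With upper-quartile factors 21 of the 64 pathway genes tested, members included, were called, 9 higher and 12 lower, in place of 17 higher and 6 lower, and those factors moved the median gene by -0.29. Over all genes the share of calls that were higher went from 67.0% to 21.4% with these factors. Without knockout spleen 2, only 2 pathway genes and 240 genes in all were called. Without wild-type spleen 2, 36 pathway genes were called. The number block called 29 pathway genes, and the spleen numbers are not stated to pair animals.

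In fetal liver, edgeR called 0 of 18986 genes between genotypes (percent called 0, 138 genes at an unadjusted p under 0.05, and 12 genes by DESeq2), and none of the 65 pathway genes tested. Epor differed by 0.47 ± 0.79, Jak2 by 0.34 ± 0.55, Stat5a by 0.39 ± 0.47, Stat5b by -0.01 ± 0.54, Cish by 0.06 ± 0.52, Pim1 by -0.02 ± 0.73 and Bcl2l1 by -0.18 ± 0.86 (log2, knockout over wild type, 2 and 2 sections). Every one of these errors was larger than the difference. With sections paired by litter the errors were smaller, and Epor differed by 0.57 ± 0.28, Jak2 by 0.31 ± 0.27 and Bcl2l1 by -0.27 ± 0.29. The paired fit called 157 genes, 0.827% of those tested, and again none of the 65 pathway genes. Restricted to hepatocyte-marked spots, the paired Epor difference was 0.16 ± 0.32 (chosen after seeing the data). Unpaired, Epor differed by 1.76 ± 0.83 without wild-type fetal liver 2 and by -0.55 ± 1.00 without knockout fetal liver 2, so its direction turned on single sections.

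The share of liver differed between these sections. Wild-type fetal liver 4, with the lowest Epor level of the 4, also had the fewest hepatocyte-marked spots (29.8%) and 5.00% of UMIs in erythroid markers, against 17.6%, 21.6% and 7.47% in wild-type fetal liver 2 and knockout fetal livers 2 and 4. None of the 12 erythroid markers separated the genotypes in fetal liver. Both knockout fetal livers were above both wild types in CPM for 4 of the 7 genes (Jak2, Stat5a, Stat5b and Cish), beside 7.46% of all genes tested, and below them for 0 of 7, beside 2.45%, and nothing is read from these counts. On the CPM scale the median gene was at 0.22 between genotypes.

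**Figure D2:**
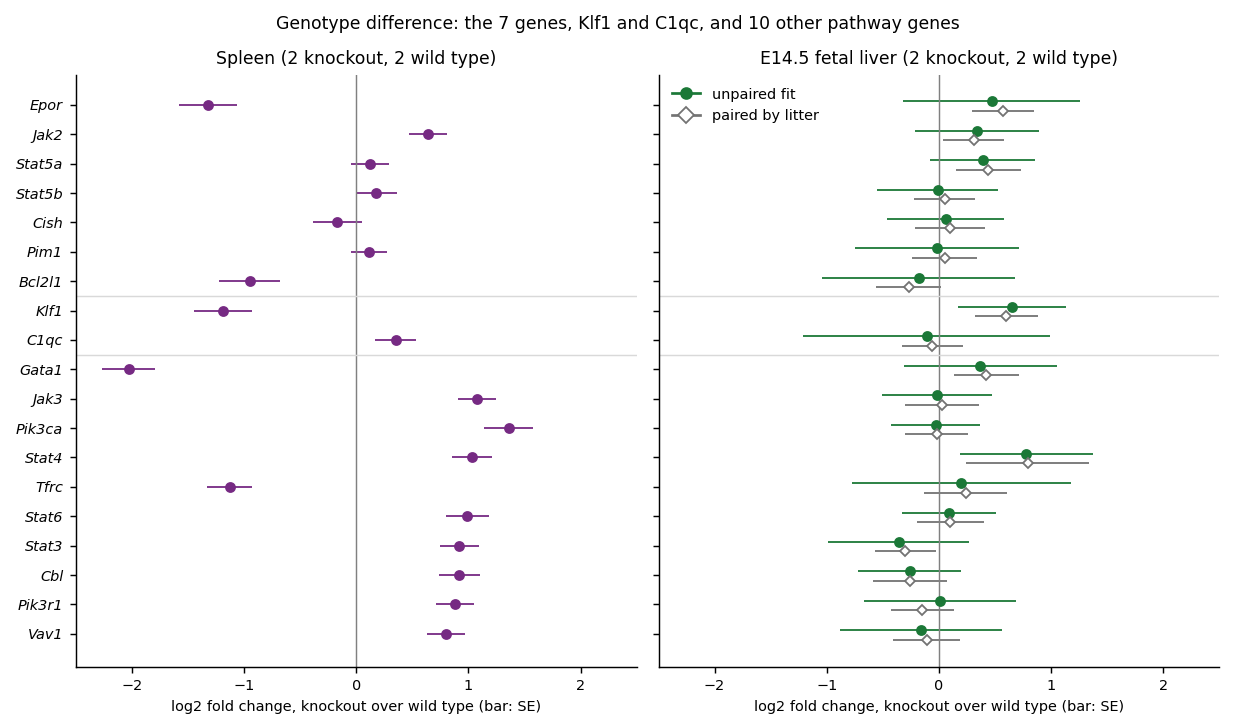
Log2 fold change, C1qa knockout over wild type (points; bars are SE; 2 sections per genotype), for the 7 genes, Klf1 and C1qc, and the 10 other pathway genes with the smallest adjusted p in spleen. In spleen Epor, Bcl2l1, Klf1, Gata1 and Tfrc lie below 0 and Jak2 with the other JAK, STAT and kinase genes above; in fetal liver the unpaired bars are wide and the fit paired by litter narrows them.

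Where the genes lay within the spleen was asked by splitting the spots of each section into 3 parts of equal size by their share of B cell and T cell marker UMIs and comparing the highest (lymphoid-high) with the lowest (lymphoid-low) part. Neither the 7 genes nor Klf1 or C1qc were used for this split, but it shares the spots and counts of the levels above. The 7 genes were chosen partly by their spot correlation with Klf1 and C1qc in these same spots. Their adjusted p-values below are therefore given as a description and not as support. Epor was lower in lymphoid-high spots of each section. It was at 52.1 CPM in lymphoid-low and 11.9 CPM in lymphoid-high spots of wild-type spleen 1, at 31.1 and 6.40 in wild-type spleen 2, at 12.6 and 7.22 in knockout spleen 1 and at 8.91 and 4.12 in knockout spleen 2. Over all passing spots Epor had 551 and 66 UMIs in the wild-type and 91 and 121 in the knockout spleens. The levels of wild-type spleen 2 and of the knockouts therefore rest on few counts. The difference was -1.83 ± 0.25 (log2, edgeR with the section as a block, adjusted p = 0.00193), lower in 4 of 4 sections. The purchased adult spleen, which was not in the fit, had 13.4 and 2.48 CPM.

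Bcl2l1 was also a gene of the lymphoid-poor spots, at 406 CPM in lymphoid-low and 76.1 CPM in lymphoid-high spots of wild-type spleen 1, 125 and 50.5 in wild-type spleen 2, 70.9 and 38.1 in knockout spleen 1, and 87.0 and 44.2 in knockout spleen 2. Its difference was -1.62 ± 0.25 (edgeR adjusted p = 0.00347). The targets Cish and Pim1 differed less, by -0.74 ± 0.16 (edgeR adjusted p = 0.0156) and -0.51 ± 0.12 (edgeR adjusted p = 0.0235). Cish lost the call without wild-type spleen 2 (edgeR adjusted p = 0.0695) and without knockout spleen 2 (edgeR adjusted p = 0.0738), and Pim1 without wild-type spleen 2 (edgeR adjusted p = 0.113). Jak2, Stat5a and Stat5b differed by -0.09 ± 0.11, 0.01 ± 0.11 and 0.01 ± 0.09, with edgeR adjusted p = 0.690, 0.973 and 0.982.

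So 4 of the 7 genes, the receptor and the 3 targets, were lower in lymphoid-rich spots, beside 12.4% of all 18478 genes called in either direction, while the kinase and both STAT genes did not pass the test. Nothing is read from that count, since values of these spots were used when the genes were chosen. In CPM, 3 of the 7 (Epor, Cish and Bcl2l1) were lower in lymphoid-high spots of 4 of 4 sections, beside 7.48% of all genes, and 1 (Stat5b) was higher in 4 of 4, beside 31.7%. In wild-type spleen 1 alone, Jak2 was at 56.8 CPM in lymphoid-low and 83.4 in lymphoid-high spots, Stat5a at 60.6 and 92.3, and Stat5b at 154 and 215. In the other 3 spleens the Jak2, Stat5a and Stat5b levels of the 2 region types differed by less. Klf1 and C1qc were lower in lymphoid-high spots as well, by -1.05 ± 0.17 (edgeR adjusted p = 0.00450) and -1.41 ± 0.12 (edgeR adjusted p = 0.000154).

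Among the other pathway genes 16 of 57 passed in this comparison, beside 12.4% of all 18478 genes tested. Of the 16, 10 were higher and 6 lower in lymphoid-high spots. The median log2 difference of the 57 was -0.01, against 0.00 for all genes. Gata1 was lower by 2.94 on the log2 scale (-2.94 ± 0.29, edgeR adjusted p = 0.000362) and went from 129 to 12.1 CPM in wild-type spleen 1. Kitl, the ligand of the progenitor receptor KIT, was lower by -0.58 ± 0.11 (edgeR adjusted p = 0.0111). Sh2b3, which encodes the JAK2 inhibitor LNK, was higher by 0.71 ± 0.08 (edgeR adjusted p = 0.000654), Plcg2, a phospholipase of B cell receptor signalling, by 0.86 ± 0.10 (edgeR adjusted p = 0.000830), and Ptpn6, which encodes the phosphatase SHP-1 that ends receptor signalling, by 0.80 ± 0.12 (edgeR adjusted p = 0.00241). Myc, Lyn, Bcl2, Grb2 and Vav1 were also higher, by 0.44 to 0.65. Of 8 inhibitors 3 rose and none fell. Without the section as a block 1 pathway gene was called in place of 20.

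**Figure D3:**
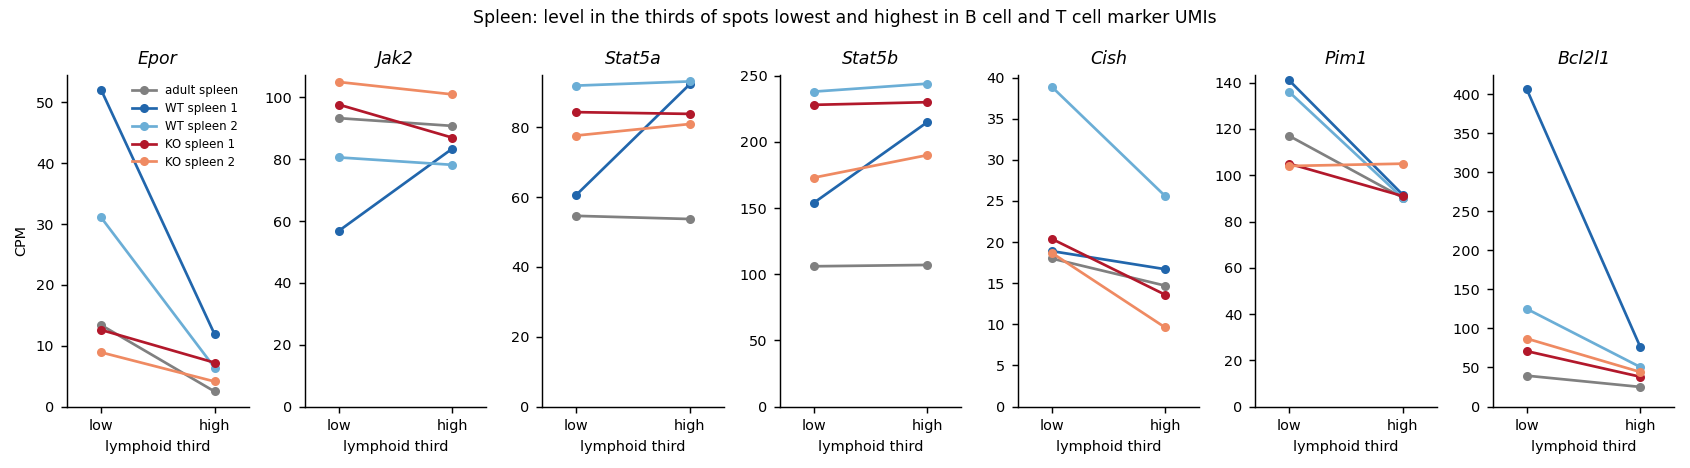
Level (CPM) of each gene in the lymphoid-low and lymphoid-high parts of the spots of each spleen; each line is 1 section. Epor and Bcl2l1 fall in all 5 spleens, from 52.1 to 11.9 CPM and from 406 to 76.1 CPM in wild-type spleen 1, and Stat5a and Stat5b move less outside that section than in it.

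In fetal liver the same was asked of hepatocyte content, within spots with at least 0.5% hepatocyte UMIs. As in spleen, the adjusted p-values of the 7 genes are given as a description and not as support. Only Bcl2l1 of the 7 genes passed, higher by 0.30 ± 0.07 in hepatocyte-high spots (edgeR adjusted p = 0.0256), beside 4.99% of 17608 genes called. The call was lost without wild-type fetal liver 2, wild-type fetal liver 4 or knockout fetal liver 2 (edgeR adjusted p = 0.0946, 0.145 and 0.130), and in CPM Bcl2l1 was at 219 and 232 in low and high spots of wild-type fetal liver 2, 157 and 174 in wild-type 4, 214 and 259 in knockout 2 and 122 and 120 in knockout 4. In each section the CPM difference of Bcl2l1 was smaller than the fitted 0.30, which is on the TMM scale, as are the fitted differences of the other members. Epor differed by 0.14 ± 0.09 (edgeR adjusted p = 0.536). Its level was 141 and 114 CPM in low and high spots of wild-type fetal liver 2 and 200 and 169 of knockout 2, but 119 and 136 of wild-type 4 and 144 and 172 of knockout 4, so the direction in CPM went with the number. Jak2, Stat5a, Stat5b, Cish and Pim1 differed by 0.11 to 0.33 and did not pass, with Pim1 nearest (edgeR adjusted p = 0.0705, and 0.0423 without wild-type fetal liver 2). In CPM none of the 7 was higher and none lower in hepatocyte-high spots of 4 of 4 sections, beside 4.53% and 24.7% of all genes. Of the other 58 pathway genes 5 passed: Tfr2, a receptor that binds EPOR (0.56 ± 0.11, edgeR adjusted p = 0.00571), Jak3 (0.56 ± 0.13), Il3ra (0.61 ± 0.15) and the mitophagy gene Bnip3l (0.33 ± 0.08) were higher, and the cyclin gene Ccnd2 was lower (-0.41 ± 0.09, edgeR adjusted p = 0.0103).

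Spot correlations are given across the passing spots of a section on log2 values scaled to 6000 UMIs. The spots of a section share 1 library, differ in depth, and are not replicates, so no p is given. Epor correlated with Klf1 at r = 0.842 across 806 spots of wild-type fetal liver 4, at 0.578 across 589 spots of knockout fetal liver 4 and at 0.350 across 1085 spots of P8 marrow. In these 3 sections the hepatocyte-marked or neutrophil-marked spots were 240, 368 and 274. In the other 10 sections r ran from 0.00670 to 0.197. Within the hepatocyte-marked spots of wild-type and knockout fetal liver 4 it was 0.387 (240 spots) and 0.129 (368 spots), and within the neutrophil-marked spots of P8 marrow 0.0960 (274 spots).

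Pim1 was also high with Klf1 in the number 4 fetal livers, at r = 0.804 (wild type) and 0.529 (knockout). It ran between -0.104 and 0.0504 in 10 other sections. In P8 marrow, which is outside these 10, Pim1 was not over 0.2 in size with Klf1, unlike Epor. In the hepatocyte-marked spots the Pim1 values were 0.427 and 0.0868. Of Jak2, Stat5a, Stat5b and Cish the highest r with Klf1 was 0.360, 0.483, 0.366 and 0.207, each in wild-type fetal liver 4. Bcl2l1 reached 0.423 there and 0.287 in P8 marrow. After thinning, the Epor and Pim1 values of wild-type fetal liver 4 were 0.152 and 0.241, and as deviations from adjacent spots 0.0780 and 0.0490.

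With C1qc the correlations were weaker. Epor ran from -0.0261 to 0.142 over the 13 sections with enough spots, and of the 91 values for the 7 genes 3 were over 0.2 in size, all for Bcl2l1: 0.282 in knockout spleen 2, 0.273 in wild-type spleen 1 and 0.203 in E13.5 fetal liver. After thinning the Bcl2l1 values of these sections were 0.0989, 0.106 and -0.00587. With Klf1 13 of 91 values were over 0.2.

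**Figure D4:**
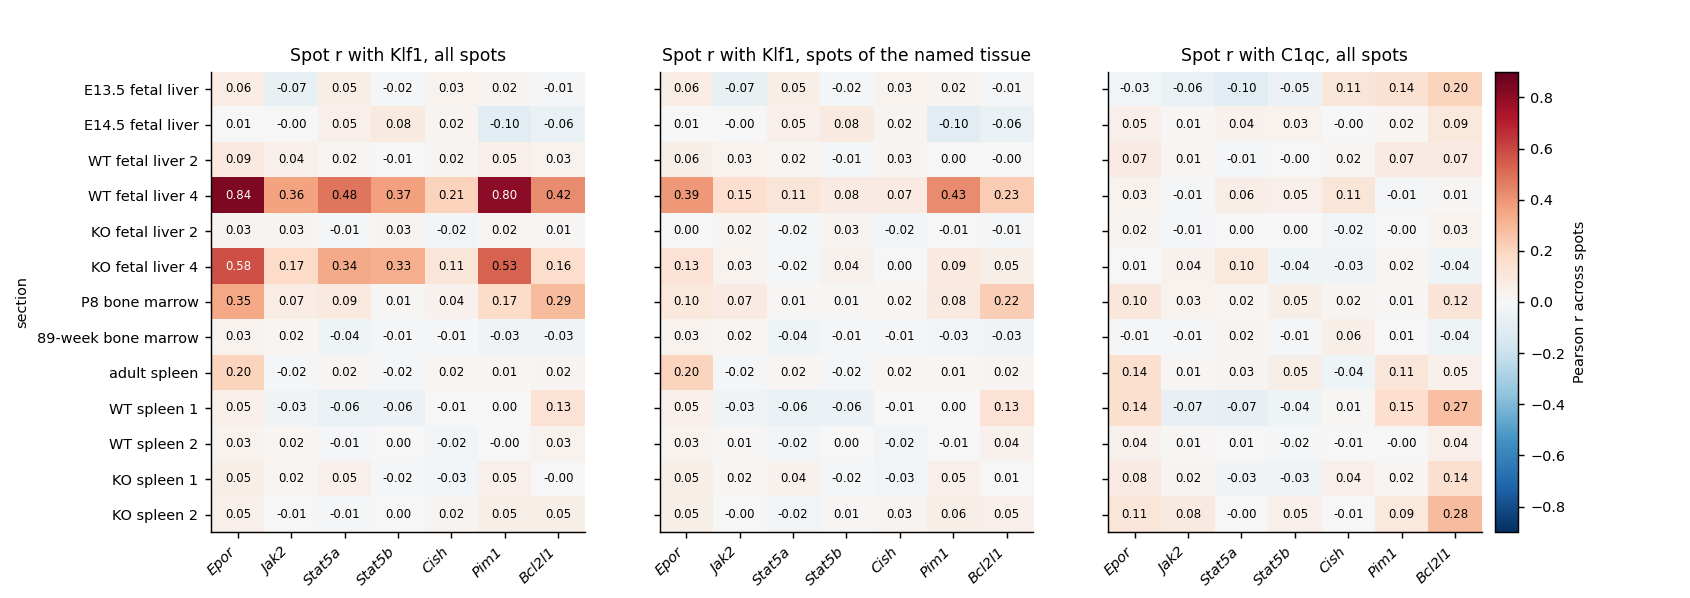
Pearson r across spots of each gene (columns) with Klf1 over all passing spots, with Klf1 over spots of the named tissue only, and with C1qc over all passing spots, in 13 sections (rows). With Klf1 wild-type fetal liver 4, knockout fetal liver 4 and P8 marrow stand out for Epor (0.842, 0.578 and 0.350) and fade within the named tissue, and with C1qc the highest value is 0.282 for Bcl2l1.

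The mean of the log2 spot values of 12 erythroid markers was used beside Klf1. Correlations with this and the other marker lists were not recomputed after thinning or as deviations from adjacent spots. The mean rests on 12 genes and Klf1 is 1 gene, so the r values with each are not like for like. The median r over 13 sections was higher with this mean than with Klf1 for Epor (0.218 against 0.0505), Pim1 (0.232 against 0.0247) and Bcl2l1 (0.320 against 0.0334). It was lower for Jak2, Stat5a, Stat5b and Cish (-0.0487 to 0.0127 against 0.000525 to 0.0212). Epor correlated with the erythroid markers at 0.897 and 0.768 in wild-type and knockout fetal liver 4 and still at 0.504 and 0.404 within their hepatocyte-marked spots, at 0.517 in P8 marrow and 0.455 in its neutrophil-marked spots, and at 0.345 in wild-type spleen 1. Pim1 reached 0.893 and 0.766 in the number 4 livers and 0.860 and 0.600 within their hepatocyte-marked spots. Bcl2l1 correlated with the erythroid markers in each of the 13 sections, from 0.101 in adult spleen to 0.701 in wild-type spleen 1, with 0.263, 0.242 and 0.408 in wild-type spleen 2 and knockout spleens 1 and 2. In wild-type spleen 1 it was at -0.656 with the B cell markers. Stat5a and Stat5b went the other way there, at -0.216 and -0.253 with the erythroid markers and 0.205 and 0.235 with the B cell markers.

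**Figure D5:**
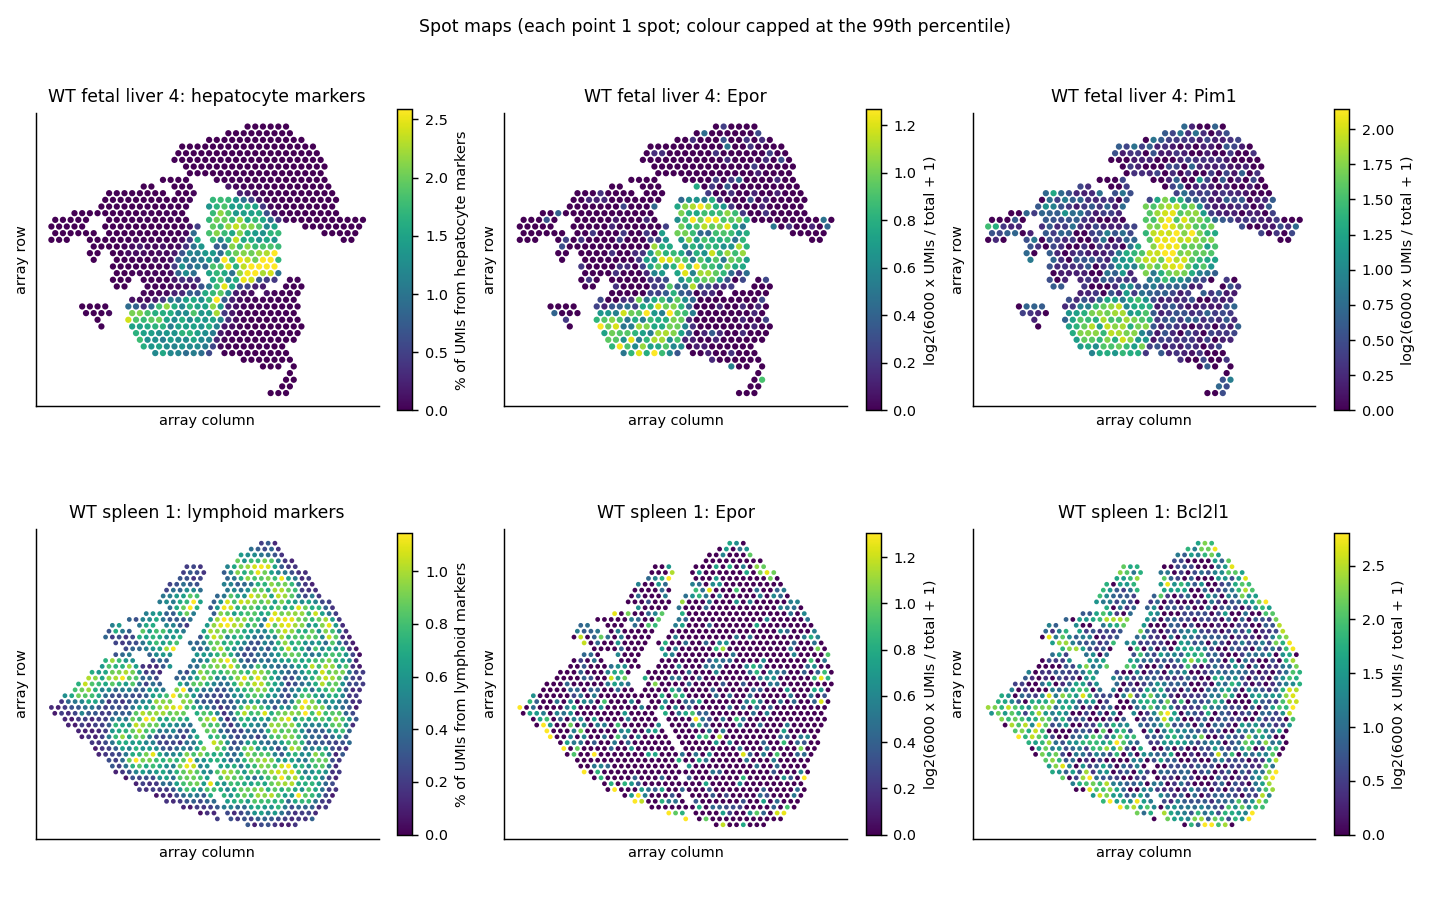
Spot maps of wild-type fetal liver 4 (upper row: percent of UMIs from hepatocyte markers, Epor, Pim1) and wild-type spleen 1 (lower row: percent of UMIs from lymphoid markers, Epor, Bcl2l1); each point is 1 spot, genes on the log2 scale. Epor and Pim1 fill the hepatocyte-marked lobes, 29.8% of the spots, and Bcl2l1 is high at the rim and low in lymphoid patches, where r with B cell markers is -0.656.

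The genes most like each member were taken by mean spot r over 13 sections among the 6815 genes with at least 0.05 UMIs per spot in every one, or 6814 for the other members. The r values were taken over all passing spots, neither thinned nor limited to the named tissue. For Epor the most alike genes included the carbonic anhydrase gene Car2 (mean r 0.306, range 0.0577 to 0.890) and Blvrb (0.279, 0.0734 to 0.901). Hbb-bt (0.277, -0.00208 to 0.875) and Hbb-bs (0.275, -0.0394 to 0.877) were also among them. For Pim1 they were Hbb-bs (0.299), Hba-a2 (0.294), Hbb-bt (0.293), Gpx1 (0.283) and Slc25a37 (0.278), and for Bcl2l1 they included Hbb-bt (0.328), Tmcc2 (0.327), the erythroid heme synthase gene Alas2 (0.326) and Hbb-bs (0.320). Hbb-bs and Hbb-bt are near-identical copies, so their separate ranks are uncertain.

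For the kinase and the STAT genes the most alike genes were others, and the values were lower. For Jak2 they were Fermt3 (mean r 0.101), E2f4 (0.0929), Fth1 (0.0878), Plek (0.0865) and Tgfb1 (0.0861). For Stat5a they were Rack1 (0.127), Fabp5 (0.123), Serbp1 (0.122), Myb (0.121) and Ikzf1 (0.118), and for Stat5b Ikzf1 (0.125), Ncl (0.115), H2-K1 (0.114), Pfn1 (0.113) and Fabp5 (0.110). Cish was closest to the red cell spectrin gene Sptb (0.0656), Grina (0.0613), March2 (0.0609), Rbm38 (0.0576) and Pim1 (0.0555), too weak to count as a finding in sparse counts. Among the members themselves Bcl2l1 and Pim1 had the highest median r over sections, 0.142, and Epor and Cish were at -0.0115.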

How the data were processed

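Visium libraries of 14 mouse sections were used. The deposited matrices give unnormalized whole-number UMI counts for every gene in every spot, and the deposited barcode, feature and position tables give other values: spot names, gene symbols and array positions. According to the submitters' processing notes they were made with Space Ranger on mm10. Software versions differed between sections. Matrices of purchased sections hold 32589 features and off-tissue spots, those of the cross 19465 features and in-tissue spots alone. A pair of sections shared 0 to 4992 spot barcodes, which are array positions and not cells. Off-tissue spots of purchased sections had levels close to those in tissue (Epor 86.3 against 89.5 CPM in E14.5 fetal liver). They held 22312312 UMIs in E14.5 fetal liver, against 56182915 in tissue. In 89-week marrow they held 8390063 against 8436016, and in the EDTA-treated marrow 36859 against 449883. The effect of such counts on the spot correlations was not tested.

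In-tissue spots with at least 1000 genes were summed per section, and 1 section of 15 passing spots was left out of correlations. CPM intervals are exact Poisson at 95%. Summed counts of the cross were tested with edgeR 4.0.16 (TMM, filterByExpr, quasi-likelihood F test) in R 4.3.3, with Benjamini-Hochberg adjustment over all genes and a threshold of 0.05, and with DESeq2 1.42.0 as an alternative. SE is the log2 fold change divided by the square root of F. Fits were tested on simulated data. p-values measure the spread between these sections only. No 2 replicate sections were duplicates (lowest chi-square per degree of freedom 21.8).

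The fetal liver numbers name dams, so wild type and knockout of a number are littermates. Deviations of same-numbered sections correlated at 0.627 in fetal liver and at 0.0333 in spleen, where no pairing is stated.

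Other pathway genes came from 5 lists of 59 symbols, of which 58 were found. Fam132b is the former symbol of Erfe. Named genes were the 7 members, Klf1, C1qc and C1qa, at most 10 other pathway genes per comparison by smallest adjusted p, and the 5 most alike genes per member, of which some are not reported here. Members, lists and rules were chosen with earlier results of these data known. Neither Stat5a and Stat5b nor other paralogs were checked for shared probes. Alternatives were other scaling, tools, filters, spots, blocks and left-out sections. Image files were not used here.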

Additional observations from a re-analysis of the deposited data

Results flagged for a closer look

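The genotype difference was compared between tissues in 1 fit to the 8 cross sections. Without a litter term edgeR called 0 of 19180 genes (2018 at an unadjusted p under 0.05), and with the litter of each fetal liver as a term, chosen after seeing the data, it called 1409. Pathway genes were listed here when their edgeR adjusted p in the fit with the litter term was under 0.05, and Epor was among them. Epor was lower in both knockout spleens and, within each litter, higher in the knockout fetal liver. Given as the log2 difference in spleen minus that in fetal liver, Epor was at -1.88 ± 0.34 with and -1.77 ± 0.99 without the litter term. These levels were known when the gene was chosen, so the values are a description and its listing is not read as a test. Klf1, which is not on the pathway lists, was at -1.77 ± 0.37 with and -1.79 ± 0.58 without the litter term.

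Of the other pathway genes, 11 passed the test of the difference with the litter term, and 3 of them were lower in spleen relative to fetal liver: Gata1 at -2.43 ± 0.37 (edgeR adjusted p = 0.000698), Tfr2 at -1.39 ± 0.38 (edgeR adjusted p = 0.0341) and Tfrc at -1.36 ± 0.40 (edgeR adjusted p = 0.0447). The 8 that were higher were Pik3ca at 1.40 ± 0.35, Cblb at 1.27 ± 0.30, Stat3 at 1.22 ± 0.30, Cbl at 1.21 ± 0.34, Pim3 at 1.12 ± 0.30, Jak3 at 1.05 ± 0.30, Pik3r1 at 1.02 ± 0.31 and Sh2b3 at 0.96 ± 0.28, with edgeR adjusted p from 0.0173 to 0.0469. Without the litter term the adjusted p of the 11 genes ran from 0.454 to 0.631. Stages and litters differ between the tissues as well as the organ, and these cannot be told apart.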

How the results depend on the processing

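In spleen 23 pathway genes, members included, were called between genotypes. Leaving out 1 section gave 2 to 36, and DESeq2, upper-quartile factors, no filter, the replicate block, all in-tissue spots, spots without pancreas and lymphoid-low spots gave 22, 21, 24, 29, 24, 25 and 26. In fetal liver the count was 0 under each alternative run, with 0 in the fit with the replicate block. For the region types of spleen the count was 20, 1 without the section block and 11 to 20 without 1 section. For those of fetal liver it was 6, 3 with DESeq2, 0 without the section block and 1 to 4 without 1 section, and over all genes 0 of 12647 were called without that block (237 at an unadjusted p under 0.05) and 488 by DESeq2 against 879. Other counts over all genes that moved by over 1.5 times were 225 without the section block in spleen, 1386 with DESeq2, 978, 1431 and 1292 without wild-type spleen 2, knockout spleen 1 and knockout spleen 2, against 2290, and in fetal liver regions 425 without wild-type and 464 without knockout fetal liver 4. Between fetal liver genotypes, where 0 genes were called, the block called 157, leaving out wild-type fetal liver 2 or 4 called 109 or 103, and hepatocyte-marked spots called 1, or 27 with the block. No pairing is stated for the spleen replicate numbers, and the r of same-number deviations (0.0333) cannot decide whether animals were paired. What made the counts move between settings was not tested. The number of spot correlations with Klf1 over 0.2 in size went from 13 to 1 after thinning, 0 as deviations from adjacent spots and 4 within the named tissue (chosen after seeing the data). With C1qc it went from 3 to 0 after thinning, 0 as deviations and 5 with Spearman. Of 175 recomputed levels 16 moved by more than the spread between replicates, all in the number 4 fetal livers or the EDTA-treated marrow. Differences that were not called did change sign, among them Epor in fetal liver without single sections and Stat5a, Stat5b and Pim1 in spleen with the scaling. Depth limits Epor in spleen, with 66 to 551 counts per section, and every gene in the EDTA-treated marrow.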
